A study of Homo sapiens with 36 samples.

Results

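MDA-MB-231, an established triple-negative human breast cancer line, was depleted of either YAP or TAZ with small interfering RNA (siRNA), and the 2 depletions were compared directly with each other. The members are 4 RNA-seq libraries out of 36 in the series, selected by title and cell line: 2 labelled YAPi (siRNA against YAP, gene YAP1) and 2 labelled TAZi (siRNA against TAZ, gene WWTR1), numbered as replicates 1 and 2 in each group. Both groups carry a siRNA and no further treatment is named for them. Control siRNA libraries of the same title prefix are not used, because RNAs that lack a poly(A) tail, such as 7SK, took at most 0.0041% of their gene counts and 12.1% to 14.1% in the 4 knockdown libraries. Every difference below is therefore YAPi minus TAZi: a gene that is lower in YAPi may equally be called higher in TAZi, and its level without siRNA is not known from this comparison. Nothing in the labels says that the replicates came from separate cultures, so p-values measure only the spread between these libraries, which may be technical. The tests take the replicate number as a block, so differences common to a replicate number are removed from that spread. This leaves 1 residual degree of freedom per gene.

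YAP and TAZ are paralogous transcriptional coactivators at the end of the Hippo pathway. They do not bind DNA themselves but are brought to it mainly by TEAD factors, often beside AP-1, and kinases of the LATS family hold them in the cytoplasm. In breast cancer cells they drive genes of growth, migration and the matrix, and the comparison asks which transcripts differ in level between loss of YAP and loss of TAZ.

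The study's oligonucleotide table lists 1 siRNA sequence for each factor beside catalogue numbers, while its methods describe siRNA pools, and which of these the MDA-MB-231 cells received is not stated. The sequences are shown because the seed matches below were counted for them alone. If a pool was used, its other sequences are not covered. Each line gives the guide strand, worked out as the reverse complement of the listed strand, 5′ to 3′, with the seed (bases 2 to 8) in capitals.
YAP1 siRNA guide: uCUCUGACcagaagauguc
TAZ siRNA guide: aAAGUUCCuaagucaacgu
The YAP1 siRNA matched the coding sequence in exon 2 of YAP1 at chr11:102114365-102114383 on the plus strand of GRCh38, and the TAZ siRNA matched the coding sequence in exon 7 of WWTR1 at chr3:149520887-149520905 on the minus strand. Each full sequence of 19 bases was found in 1 reference transcript (MANE Select, GENCODE version 44), that of its own target. The site pairing with the seed reads GTCAGAG for the YAP1 siRNA and GGAACTT for the TAZ siRNA.

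The 4 libraries held 1724443 to 2784553 expected counts on genes, and at this depth the filter of DESeq2 gave no adjusted p to genes averaging under 43.9 normalized counts. Replicate numbers 1 and 2 also differ in the deposited effective lengths: the median gene was 48.0 bases longer than its effective length in both replicate 1 libraries and 74.6 bases longer in both replicate 2 libraries. Among genes averaging at least 100 counts, log2 ratios between the 2 replicates had a standard deviation of 0.535 in YAPi and 0.455 in TAZi. Between YAPi and TAZi it was smaller, 0.419 within replicate 1 and 0.384 within replicate 2. All 7 markers fixed for MDA-MB-231 were present in all 4 libraries, at 27.5 to 763 TPM, a share of all transcripts corrected for gene length. Of 9 luminal and epithelial markers, 4 were at 0 throughout, PGR, GRHL2 and ESRP1 among them, and the highest was EPCAM, at 3.10 to 12.1 TPM. The basal keratin KRT5 was at 5.99 and 6.37 TPM in the 2 replicate 1 libraries and at 0 in both replicate 2 libraries. Of the basal markers only SFN was over 1 TPM in all 4 libraries.

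Each targeted gene was lower in the libraries labelled with its own siRNA. YAP1 was at 51.8 and 69.7 normalized counts in YAPi and 469 and 522 in TAZi, a log2 fold change of -3.03 ± 0.22 (SE, adjusted p = 6.8e-39, DESeq2). WWTR1 was at 98.4 and 157 normalized counts in YAPi and 12.5 and 7.61 in TAZi, a log2 fold change of 3.70 ± 0.51 (adjusted p = 8.2e-11). The WWTR1 values in TAZi rest on 10 reads in each library. In TPM, YAP1 was at 5.70 ± 2.04 in YAPi and 42.2 ± 20.8 in TAZi, and WWTR1 at 10.1 ± 7.59 and 1.29 ± 1.01 (SD, n = 2). YAP1 spans chr11:102110447-102233424 and WWTR1 chr3:149517235-149736714. The 2 groups do not overlap for either gene.

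**Figure D1:**
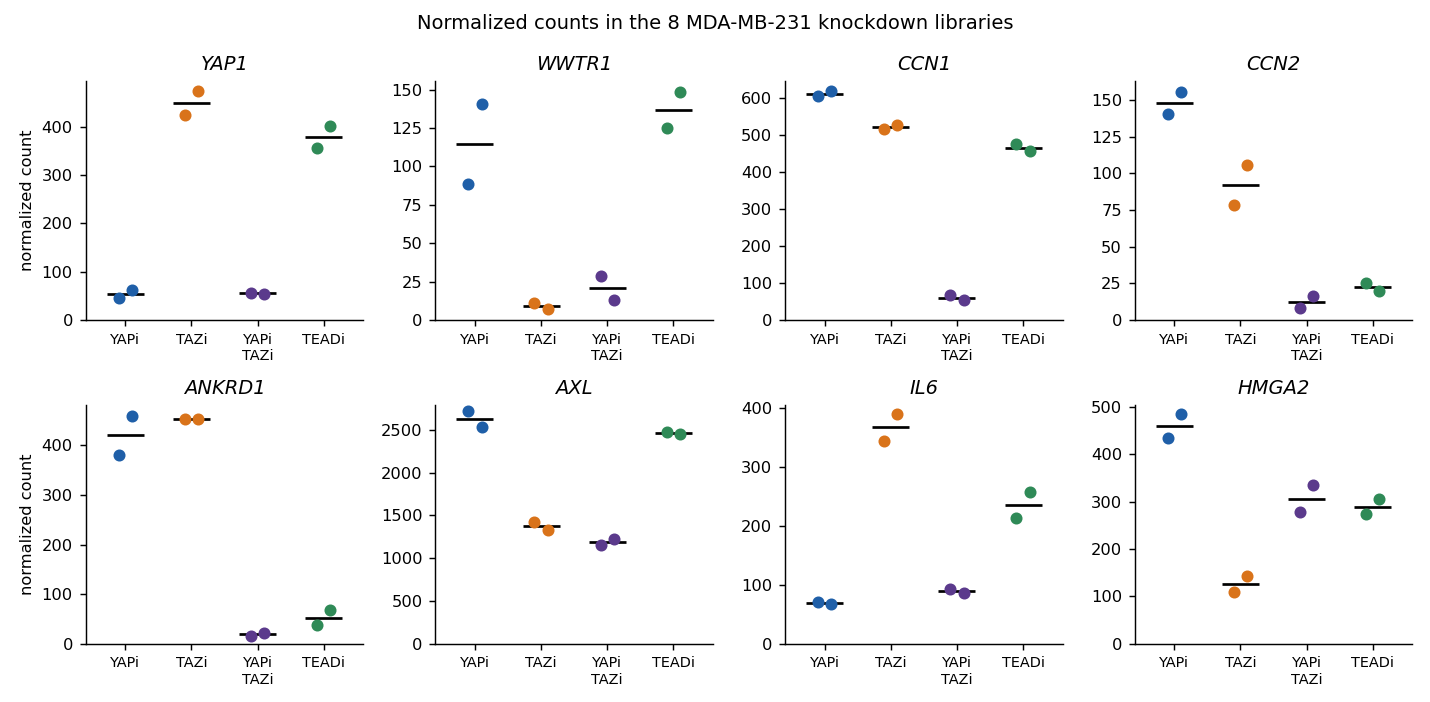
Normalized counts, on 1 scale for all 8 knockdown libraries, of the targeted genes YAP1 and WWTR1, the YAP/TAZ targets CCN1, CCN2, ANKRD1 and AXL, and IL6 and HMGA2; points are libraries, bars are means of n = 2, and each axis starts at 0. CCN1, CCN2, ANKRD1 and AXL are lowest with both siRNAs together, and IL6 is lower in YAPi than in TAZi while AXL and HMGA2 are higher.

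In all, 275 of 7631 genes with an adjusted p differed at adjusted p under 0.01 (DESeq2 with the replicate number as a block), which is 3.6% of those tested. Of these, 187 (2.45%) were higher in YAPi and 88 (1.15%) were lower, and 271 were protein coding. All 275 had the same sign in both replicate numbers, and the 2 groups overlapped for 1 of them, but the groups also did not overlap for 48.4% of all tested genes. A difference of at least 2-fold was reached by 124 of the 275, 72 higher and 52 lower in YAPi. Called genes were more abundant, with a median mean normalized count of 313.8 beside 123.0 for all tested genes. The shares of gene lists called below are not adjusted for abundance. Without the replicate block 140 genes were called, all among the 275. Offsets from the effective lengths left 84, of which 83 were among the 275, and edgeR called 1516, including all 275.

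**Figure D2:**
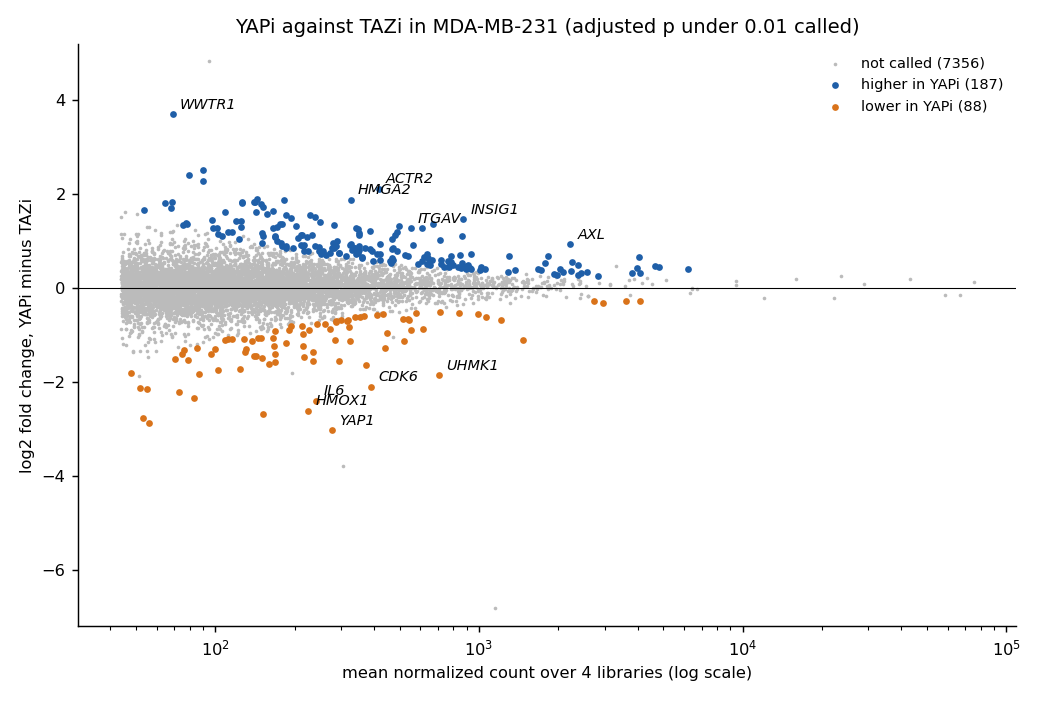
Log2 fold change (YAPi minus TAZi) against the mean normalized count over 4 libraries (log axis) for all 7631 genes tested; coloured points passed adjusted p under 0.01, 187 higher and 88 lower in YAPi. Among the called genes YAP1 and WWTR1 have the largest estimates, and at high counts changes below 2-fold passed the test.

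Among the genes that were lower in YAPi, several act in inflammation, redox metabolism and cell-cycle entry. IL6, the cytokine that signals through gp130 to STAT3, was at 79.3 and 74.6 normalized counts in YAPi and 381 and 430.2 in TAZi, a log2 fold change of -2.40 ± 0.22 (adjusted p = 5.7e-24, DESeq2). HMOX1, the heme-degrading oxygenase, was at 75.1 and 52.3 in YAPi and 417 and 354 in TAZi, lower by a log2 fold change of -2.61 ± 0.24 (adjusted p = 1.5e-25). CDK6, a D-type cyclin kinase, was at 146 and 149 in YAPi and 588 and 676 in TAZi (log2 fold change -2.10 ± 0.17, adjusted p = 6.9e-31). The groups did not overlap for these 3 genes, which their selection required, nor for 48.4% of all tested genes.

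Other genes at that end were UBE2L6, an enzyme of ISG15 conjugation (log2 fold change -2.88), JKAMP (-2.69), HK2, the hexokinase that starts glycolysis (-2.34), CIAO2A, of cytosolic iron-sulfur assembly (-2.22), SLC25A22, a mitochondrial glutamate carrier (-2.15), and UHMK1, a kinase (-1.85). PI4K2B, a phosphatidylinositol kinase (-1.82), SDC2, a syndecan (-1.81), and ZNF268, a zinc finger gene (-1.75), complete the named protein-coding genes. The remaining members of the 15 are YAP1 itself, the pseudogene RPS3AP6 and ENSG00000270066. RPS3AP6 shares sequence with the ribosomal gene RPS3A, so its reads are uncertain, and it ranged from 32.7 to 143 normalized counts within TAZi alone. ENSG00000270066 was at 51.8 and 0 normalized counts in YAPi and 104 and 56.3 in TAZi.

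Genes that were higher in YAPi, and so lower in TAZi, included regulators of chromatin, hypoxia response and the actin network. HMGA2, an architectural chromatin protein, was at 485 and 541 normalized counts in YAPi and 120.3 and 158 in TAZi, a log2 fold change of 1.89 ± 0.19 (adjusted p = 3.8e-21, DESeq2). EPAS1, which encodes the hypoxia factor HIF-2α, was at 224 and 229 in YAPi and 67.7 and 54.8 in TAZi (1.90 ± 0.28, adjusted p = 9.8e-10). ACTR2, a subunit of the Arp2/3 complex that nucleates branched actin, was at 535 and 819 in YAPi and 137 and 174 in TAZi (2.11 ± 0.17, adjusted p = 2.9e-32). The lack of overlap between groups for these 3 genes was likewise a condition of their selection.

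The same side held PGM2L1 (log2 fold change 2.52), MPC2, a subunit of the mitochondrial pyruvate carrier (2.41), and GLTP, a glycolipid transfer protein (2.27). Next came SH2B3, a signalling adaptor (1.84), NCS1, a calcium sensor (1.83), TXNDC12, a thioredoxin-like protein of the endoplasmic reticulum (1.83), and MAT2B, a regulatory subunit of S-adenosylmethionine synthesis (1.82). KLF13, a zinc finger factor (1.81), CERK, ceramide kinase (1.80), and AP1S2, of the clathrin adaptor AP-1 (1.80), which is unrelated to the transcription factor, were close behind. ENSG00000275993, at 236 and 336 normalized counts in YAPi and 72.7 and 81.5 in TAZi, has no symbol in the reference used, where it is annotated as an artifact, so what its reads stand for is uncertain.

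**Figure D3:**
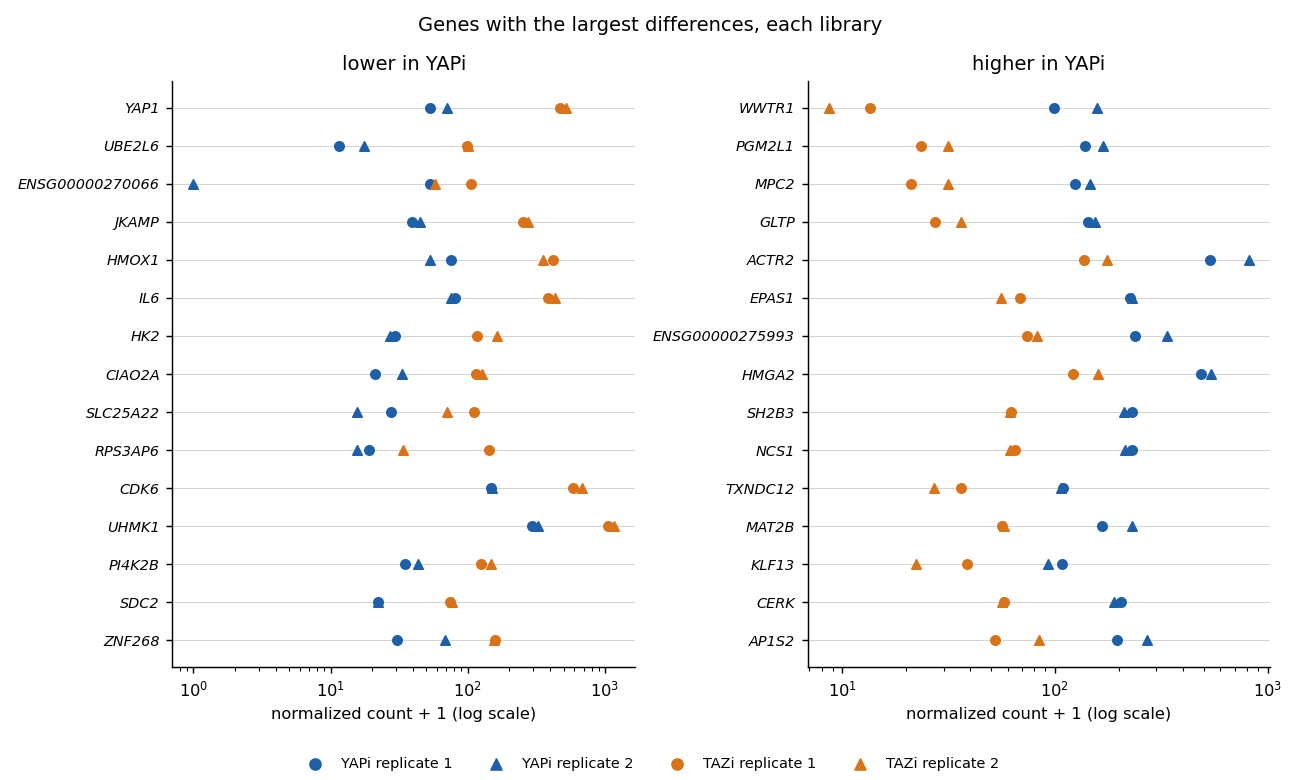
Normalized count plus 1 (log axis) in each of the 4 libraries for the 15 genes with the largest difference in each direction; circles are replicate 1 and triangles replicate 2. YAPi and TAZi separate for every gene shown, which the choice of these genes required, most narrowly for ENSG00000270066.

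Genes around the pathway were examined next, from lists written with earlier results known. Of 19 tested YAP/TAZ targets, 4 were higher in YAPi and 0 lower (21.1%, beside 3.6% of all genes), with a median log2 fold change of 0.18 beside 0.04 over all genes tested. At an unadjusted p under 0.05 the counts were 7 higher and 3 lower, and edgeR called 8 and 3. AXL, a receptor tyrosine kinase, was at 3018 and 2815 normalized counts in YAPi and 1570.4 and 1468 in TAZi (0.94 ± 0.08, adjusted p = 3.9e-32, DESeq2). PTPN14, a phosphatase that also binds YAP (0.60), MYOF (0.50) and NT5E, which encodes CD73 (0.41), also passed. The best known targets did not: CCN1 was at 673 and 689 in YAPi and 570.3 and 582 in TAZi (0.24 ± 0.13, adjusted p = 0.39), CCN2 at 157 and 173 against 86.5 and 116 (0.71 ± 0.27, adjusted p = 0.13), and ANKRD1 at 424 and 512 against 501 and 501 (-0.10 ± 0.15, adjusted p = 0.93). These 3 genes are named after their values were seen.

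Upstream of the coactivators, PTPN14 was the only one of 20 tested Hippo kinases and regulators that was called (5.00%, beside 3.6% of all genes), and the median of the list was -0.05. At an unadjusted p under 0.05, 2 of the list were higher and 5 lower, and edgeR called 2 and 6. TEAD1, the most abundant TEAD gene by normalized count, was at 489 and 499 in YAPi and 548 and 603 in TAZi (log2 fold change -0.22, adjusted p = 0.55, DESeq2). TEAD2, TEAD3 and TEAD4 had mean counts too low for an adjusted p, with log2 fold changes of 0.57, -0.24 and -0.07. The cofactor VGLL4 (0.31) was not called, and VGLL3 (-0.61) had too low a mean count for an adjusted p. None of 5 tested AP-1 genes was called by DESeq2, where FOSL1 stood at 0.41, JUNB at 0.36 and FOSL2 at -0.27, while 1 was lower in YAPi at an unadjusted p under 0.05 and by edgeR.

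Across the lists of cytokine signalling and NF-kB genes calls went in both directions, though the called cytokines of these lists were lower in YAPi. In the STAT3 and gp130 list, IL6 and IL11 were lower in YAPi and no member was higher among 9 tested (22.2% called, beside 3.6% of all genes). IL11, a gp130 cytokine, was at 262 and 197 normalized counts in YAPi and 437 and 299 in TAZi (-0.67 ± 0.18, adjusted p = 0.0084, DESeq2). The median of that list was nevertheless 0.31, with 4 members higher at an unadjusted p under 0.05 and 5 called higher by edgeR. Among 15 tested NF-kB and inflammatory genes BIRC3, an inhibitor of apoptosis, was the only one called (0.78), which is 6.67%, beside 3.6% of all genes. A positive estimate was found for 12 of the 15, with a median of 0.56.

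Of 25 tested members of the matrix, integrin and mesenchymal list, 6 were higher in YAPi and 0 lower (24.0%, beside 3.6% of all genes), and the median was 0.25. At an unadjusted p under 0.05, as by edgeR, 12 members were higher and 2 lower. Matrix genes outside the list were called lower, namely the collagens COL12A1 (-0.95) and COL8A1 (-0.70), named after their values were seen, and SDC2. ITGAV, the αv integrin, was at 691 and 871 normalized counts in YAPi and 307 and 335 in TAZi (1.28 ± 0.14, adjusted p = 6.7e-17, DESeq2). LAMB3, a laminin chain (0.71), PLAU, the urokinase protease (0.48), MMP14, a membrane metalloprotease (0.38), and VIM, vimentin (0.31), were among the others. Among 22 actin cytoskeleton and SRF target genes, 4 were higher and 0 lower (18.2%, beside 3.6% of all genes), TAGLN2 (1.20), ACTN1 (0.57) and FLNA (0.40) among them. In this list 7 were higher and 1 lower at an unadjusted p under 0.05, and edgeR called 4 and 1. Of the 7 markers used to identify the line, 6 were higher in YAPi (85.7%, beside 3.6% of all genes). They were AXL, CAV2 (1.26), MSN (0.68), PLAU, CAV1 (0.34) and VIM. The shares in this paragraph take no account of how abundant the genes are.

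In sterol metabolism, genes were called in both directions. INSIG1, which retains the SREBP complex in the endoplasmic reticulum, was at 1215 and 1347 normalized counts in YAPi and 431 and 499 in TAZi (1.46 ± 0.11, adjusted p = 3.0e-35, DESeq2). Across 17 tested genes of this list 2 were higher and 2 lower in YAPi (23.5%, beside 3.6% of all genes), 14 estimates were negative and the median was -0.37. At an unadjusted p under 0.05, as by edgeR, 2 were higher and 6 lower. In the unfolded protein response list of 12, HSPA5, the chaperone BiP (0.51), and EDEM1 (1.13) were higher and PDIA4 was lower (-0.50). That is 25.0% called, beside 3.6% of all genes, and the list had a median of 0.02 with 6 positive and 6 negative estimates.

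Growth genes were called by DESeq2 about as often as all genes. Of 27 replication genes 1 was called (3.70%), MCM7, a helicase subunit (-0.52), and of 26 mitosis genes 1 (3.85%), CCNB1, cyclin B1 (-0.56), beside 3.6% of all, with medians of -0.23 and -0.18. At an unadjusted p under 0.05, 5 replication genes were lower and 1 higher, and 5 mitosis genes lower and 2 higher. By edgeR 9 replication genes were lower and 1 higher, and 8 mitosis genes lower and 2 higher. None of 36 tested replication-dependent histone genes was called by DESeq2, and their median was 0.26, with 4 higher at an unadjusted p under 0.05 and 6 called higher by edgeR. Their largest estimates were those of H2AC14 (0.65), H3C13 (0.64) and H4C12 (0.61), and H4C12 was nearly absent from both replicate 2 libraries. MRPS27 (-1.22) was the only one called of 74 mitochondrial ribosomal protein genes (1.35%, beside 3.6% of all genes). None of 9 tested interferon-stimulated genes was called (IFIT1 -0.83, IFIT2 -0.55; MX1, at -0.70, had too low a mean count to be tested). None of the 9 had an unadjusted p under 0.05, though edgeR called 1 lower. None of 6 p53 targets was called by DESeq2 (TNFRSF10B 0.41), while 2 were higher at an unadjusted p under 0.05 and by edgeR. Of 6 RNAs without a poly(A) tail none was called by DESeq2 (RMRP 0.20, SNORD3A 0.19, RN7SL2 -0.14) and 1 was higher at an unadjusted p under 0.05, but edgeR called 4 higher and 2 lower. In bulk libraries such as these, fewer cells in a state and less RNA per cell cannot be told apart.

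Lists that the study derived from binding sites in another cell line came next. Of 332 tested genes near TAZ-specific sites, 5 were higher and 2 lower in YAPi (2.11%), and of 59 near YAP-specific sites 1 was higher and 1 lower (3.39%), both beside 3.6% of all genes. Genes near YAP/TAZ sites with a TEAD motif were called in 8.76% of 274 cases, 21 higher and 3 lower, and those near sites with an AP-1 motif in 7.47% of 174, 13 higher and 0 lower, the latter 6 at an unadjusted p under 0.05 and 12 by edgeR. The medians of these 4 lists, 0.01 to 0.08, were close to the 0.04 of all genes.

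The libraries in which both siRNAs were used (YAPi_TAZi) and those labelled TEADi (siRNA against TEAD), 2 each, place these genes further, and are given on a scale normalized over all 8 knockdown libraries. No test was run on them, and the measure below was chosen after their values were seen. CCN1, a matricellular growth factor, was at 605 and 618 in YAPi, 517 and 527 in TAZi, 66.6 and 55.0 in YAPi_TAZi and 476 and 456 in TEADi. ANKRD1 was at 381 and 459.9 in YAPi, 454 and 454 in TAZi, 16.3 and 21.8 in YAPi_TAZi and 37.0 and 68.7 in TEADi. TEAD1 was at 190.1 and 188 in TEADi and 439 to 546 in the 4 single-knockdown libraries. CCN2 was at 141 and 156, 78.3 and 106, 8.16 and 16.1, and 25.5 and 19.8 in the same order. Of 19 YAP/TAZ targets, 13 (68.4%) were lower in both YAPi_TAZi libraries than in all 4 single-knockdown libraries, beside 20.0% of all tested genes.

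The growth lists lay below both single knockdowns when the siRNAs were combined. In both YAPi_TAZi libraries, 27 of 27 replication genes, 26 of 26 mitosis genes and 34 of 36 histone genes were below all 4 single-knockdown libraries, with median log2 differences of -1.42, -1.29 and -1.64. The same held in TEADi for 27, 25 and 35 of them, beside 20.0% of all tested genes in YAPi_TAZi and 21.3% in TEADi. For the whole of the tested genes the median difference was -0.02 in YAPi_TAZi and 0.01 in TEADi.

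Genes that separate YAPi from TAZi were mostly nearer to the lower of the 2 levels when both siRNAs were given, but not at it. In YAPi_TAZi, genes higher in YAPi lay above TAZi by a median log2 difference of 0.21. Those lower in YAPi lay above YAPi by 0.29. Of the 186 genes higher in YAPi (WWTR1 left out), 134 were nearer to TAZi than to YAPi in YAPi_TAZi, and of the 87 lower in YAPi (YAP1 left out), 62 were nearer to YAPi. In TEADi these counts were 55 and 35. IL6 was at 71.3 and 66.9 in YAPi, 345 and 389.8 in TAZi, 92.5 and 85.4 in YAPi_TAZi and 213 and 258 in TEADi. AXL was at 1148 and 1220.2 in YAPi_TAZi, under both TAZi values of 1423 and 1330.2, but at 2478 and 2446 in TEADi. Since YAPi and TAZi chose the genes, these counts are descriptions, and no such count over all tested genes is given beside them.

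The guide strand of a siRNA can also act on transcripts that pair with its seed alone, in the manner of a microRNA, so seed matches were counted in the 3′ UTR of the MANE Select transcript. Among 7336 tested genes with such a transcript, leaving out the targeted genes, 11.4% held the YAP1 siRNA match and 12.3% the TAZ siRNA match. Of 85 genes lower in YAPi, 37.6% held the YAP1 siRNA match and 7.06% the TAZ siRNA match. Of 183 genes higher in YAPi, which are lower in TAZi, 7.1% held the YAP1 siRNA match and 30.1% the TAZ siRNA match. Past 2-fold the shares were 51.0% of 49 and 48.6% of 70. In each direction the match that was frequent was that of the siRNA under which the genes were lower.

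These genes had somewhat longer 3′ UTRs, with medians of 1574 and 2067 bases for the lower and higher genes beside 1476 for all. Within 3′ UTRs of 1000 to 3000 bases the shares were 50.0% for the YAP1 siRNA match in 38 lower genes and 28.8% for the TAZ siRNA match in 73 higher genes, beside 11.5% and 11.7% of 2739. The same bases of the opposite, listed strand gave a match in 36.5% of the lower genes for the YAP1 siRNA, beside 19% of all, and in 5.46% of the higher genes for the TAZ siRNA, beside 0.927%. Genes with only the YAP1 siRNA match had a median log2 fold change of -0.07, those with only the TAZ siRNA match 0.16 and those with neither 0.03. Of the called genes with a 3′ UTR, 120 higher and 51 lower held neither match.

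**Figure D4:**
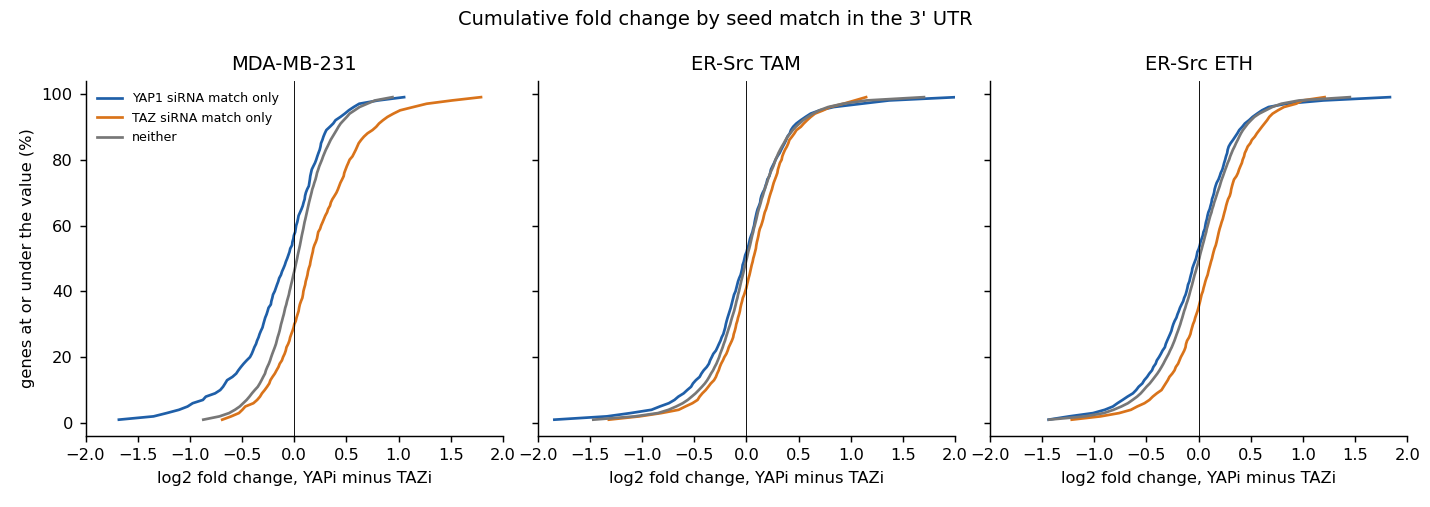
Cumulative share of genes (%) against the log2 fold change, YAPi minus TAZi, for genes whose 3′ UTR holds only the YAP1 siRNA seed match, only the TAZ siRNA seed match or neither, in MDA-MB-231 and in ER-Src under TAM and ETH. In MDA-MB-231 the curves lie apart in opposite directions, at medians of -0.07, 0.16 and 0.03, and in ER-Src they are closer together.

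Named genes stand on both sides of that division. UBE2L6, HK2, CIAO2A, SLC25A22, CDK6 and PI4K2B held the YAP1 siRNA match, and PGM2L1, MPC2, ACTR2, EPAS1, NCS1, MAT2B, KLF13, AP1S2 and SH2B3 held the TAZ siRNA match, SH2B3 with the YAP1 siRNA match as well. ITGAV, INSIG1, TAGLN2, HSPA5 and EDEM1 held the TAZ siRNA match too. Not every match went with a lower level under its own siRNA. PTPN14 held 3 YAP1 siRNA matches, TGM2 2 and BIRC3 1, and all were higher in YAPi. MMP14, also higher in YAPi, held both kinds of match. IL6, HMOX1, JKAMP, UHMK1, HMGA2, GLTP, CERK, AXL and LAMB3 held neither. The 3′ UTR of WWTR1 held 1 YAP1 siRNA match. The part of seed pairing in any of these differences was not tested.

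The same contrast was available in independent libraries of another line, MCF-10A ER-Src, a breast epithelial line with an inducible v-Src. Its libraries were made under tamoxifen (TAM) and under the ethanol vehicle (ETH), 2 per group. Per the study, the cells are non-transformed under ETH, while TAM turns on v-Src and transforms them. YAPi and TAZi differed there for 593 of 14383 genes (4.12%) under TAM, 2.3% higher and 1.82% lower in YAPi, and for 517 of 14059 (3.68%) under ETH, 1.76% higher and 1.91% lower. Of 271 genes called in MDA-MB-231 and testable under TAM, the targeted genes left out, 62 were called in both (22.9% of the MDA-MB-231 calls and 17.4% of the 357 TAM calls among shared genes), 56 in the same direction and 6 in the opposite. Under ETH 65 of 270 were called in both (24.1%, and 19.7% of 330), 62 in the same direction and 3 in the opposite. Irrespective of a call in ER-Src, 84.1% of the MDA-MB-231 calls had the same sign under TAM and 80.7% under ETH, beside 62.9% and 62.1% of all genes tested in both.

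Across the 7542 and 7526 genes tested in both lines, the log2 fold changes correlated with Pearson's r of 0.34 (Spearman's rho 0.36) for TAM and 0.35 (0.34) for ETH. These are descriptions across genes, which are not independent, of contrasts made with siRNAs against the same factors. Among genes with a 3′ UTR and neither seed match r was 0.31 in both, and 83.4% and 79.2% of the MDA-MB-231 calls kept their sign. In ER-Src the seed shares were nearer to those of all genes: 15.4% of the genes lower in YAPi under TAM held the YAP1 siRNA match, beside 11.3% of all, and 14.3% of the higher genes the TAZ siRNA match, beside 11.5%. Under ETH they were 14.5% and 19.8%, beside 11.3% and 11.6%.

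**Figure D5:**
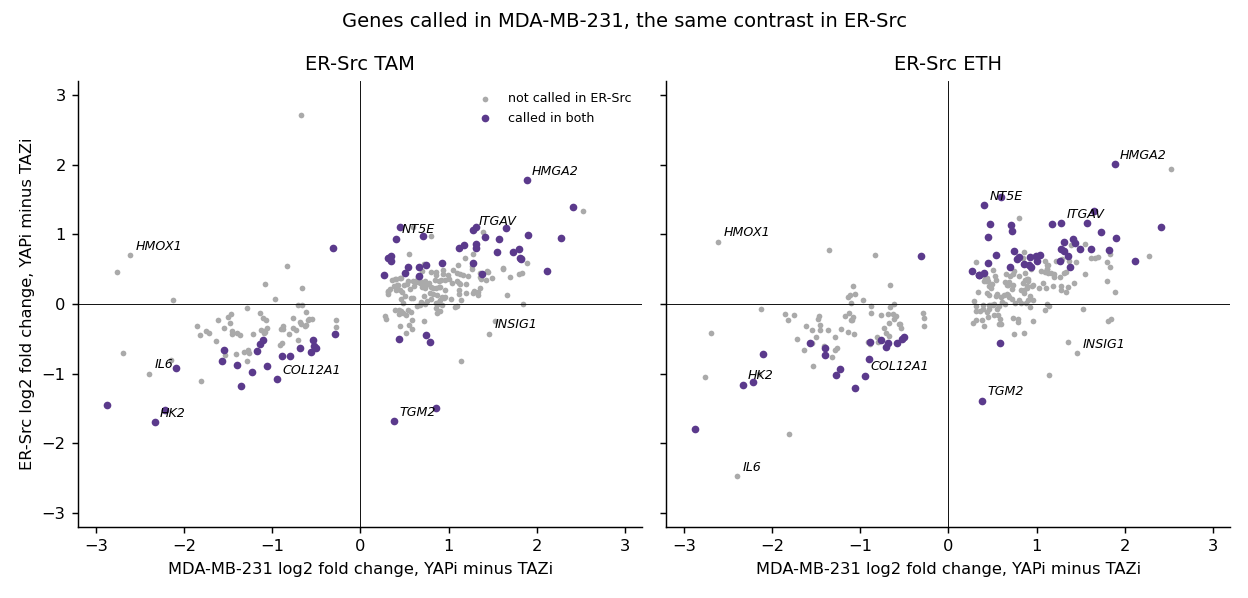
Log2 fold change (YAPi minus TAZi) in ER-Src under TAM and ETH against that in MDA-MB-231 for the genes called in MDA-MB-231, the targeted genes left out; coloured genes were also called in ER-Src. Most coloured genes share their sign, 56 of 62 under TAM and 62 of 65 under ETH, and TGM2 is among those that do not.

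In all 3 comparisons 41 genes were called, and 39 of them had 1 direction throughout, 25 higher and 14 lower in YAPi, the targeted genes included. HMGA2 had log2 fold changes of 1.89 in MDA-MB-231, 1.78 under TAM and 2.01 under ETH. ITGAV had 1.28, 1.06 and 1.16, and LAMB3 had 0.71, 0.98 and 1.13. CCND1, cyclin D1, had 0.45, 1.10 and 0.96. On the other side COL12A1, a collagen, had -0.95, -1.08 and -1.03, FADS2, a fatty acid desaturase, -1.06, -0.89 and -1.20, and HK2 -2.34, -1.70 and -1.16. MPC2, GLTP, EPAS1, RAB8B, UBE2L6 and CIAO2A, with YAP1, WWTR1, HMGA2 and HK2, had the largest mean changes over the 3 comparisons among genes shared with ER-Src. Of the 39, 17 held neither seed match, HMGA2, LAMB3, CCND1, COL12A1 and FADS2 among them. CCND1, COL12A1, FADS2 and the genes of opposite direction are named after their values were seen.

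In the opposite direction were ADAMTS9, CTSB, PRC1 and SSRP1 under TAM, SERPINH1 under ETH, and TGM2 and FTH1 under both. TGM2, a transglutaminase, was 0.38 in MDA-MB-231 and -1.68 and -1.39 under TAM and ETH, and FTH1, ferritin heavy chain, was -0.31 against 0.80 and 0.69.

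Whether the difference between YAPi and TAZi itself differed between MDA-MB-231 and ER-Src under TAM was tested as an interaction, and 515 of 12387 genes were called (4.16%, DESeq2), while edgeR called 113. HMOX1 was lower in YAPi by -2.61 in MDA-MB-231 and had an estimate of 0.70 under TAM, a difference of -3.31 ± 0.26 (SE, adjusted p = 5.7e-33, DESeq2). INSIG1 was 1.46 in MDA-MB-231 and -0.43 under TAM, a difference of 1.90 ± 0.21 (adjusted p = 1.5e-16). For HMGA2 the difference was 0.10 ± 0.22 (adjusted p = 0.89). IL6 had -1.0 under TAM and -2.48 under ETH with counts too low for an adjusted p there, and its difference of -1.34 was not called (adjusted p = 0.16).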

How the data were processed

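Total RNA of siRNA-treated cells went, per the study's methods, into libraries made with a TruSeq Ribo Profile kit. The authors aligned reads with STAR to GENCODE version 30 and quantified genes with RSEM (build hg38; program versions are not given in the sources used here). The authors deposited RSEM expected counts per gene, not normalized, and TPM, scaled by effective length within each library; the deposited tables also hold length and effective length. Of 60725 Ensembl genes, 93.1% matched GENCODE version 44, the source of symbols, coordinates and 3′ UTRs. The other identifiers, at most 0.109% of counts, were left out.

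Expected counts were rounded and tested with DESeq2 (version 1.42.0, R 4.3.3), Wald test, default size factors and independent filtering, no shrinkage, with group and the replicate number as a block. Calls were made at a Benjamini-Hochberg adjusted p under 0.01, and all adjusted p-values are over all genes tested. The pairing comes from the numbers in the titles: deviations of YAPi and TAZi libraries with the same number from their group means correlated at 0.70 over 8492 genes, and at 0.68 to 0.70 over all pairs of the 4 knockdown groups. With 2 libraries against 2 no permutation test can reach a small p. Normalized counts are counts divided by size factors. ER-Src was fitted in the same way, and the difference between the lines as an interaction term. The pairing by number was weaker in ER-Src. Deviations of YAPi and TAZi libraries with the same number correlated there at 0.16 under TAM and 0.31 under ETH.

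Named genes were, by rule, YAP1, WWTR1 and the TEAD genes, up to 15 genes in each direction with the largest change (called, groups not overlapping, normalized counts averaging 30 or more), the called members of each list or else up to 3 members with the largest change, and up to 10 genes called in 1 direction in both lines; a few list members are not reported here. The members and lists were chosen with earlier results of these data known. Alternatives were TMM factors, the quasi-likelihood test of edgeR (version 4.0.16), a mean count of at least 10, no replicate block, effective length offsets, 1 fit over the 8 knockdown libraries, leaving out each library, and a threshold of 0.05. The edgeR fit over 8 libraries, the 3′ UTR length band, the opposite siRNA strand and the genes without a seed match were added after seeing the data. The fits were tested on simulated data with known changes. For MDA-MB-231, DESeq2 recovered 24% of 200 changes of log2 size 1 and 74% of those of log2 size 2. The shares for edgeR were 18% and 77.5%.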

Additional observations from a re-analysis of the deposited data

Results flagged for a closer look

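For 27 of the 55 named genes called in MDA-MB-231, the difference between YAPi and TAZi itself differed between MDA-MB-231 and ER-Src under TAM (interaction term, adjusted p under 0.01, DESeq2). Of all genes tested, 4.16% were called. The values that follow are the MDA-MB-231 log2 fold change minus that of ER-Src TAM. Among genes lower in YAPi in MDA-MB-231 they were -3.31 for HMOX1, -2.21 for RPS3AP6, -1.97 for JKAMP, -1.53 for UHMK1, -1.397 for UBE2L6 and -1.36 for PI4K2B. SLC25A22 stood at -1.33, CDK6 at -1.17 and MRPS27 at -0.77.

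Among genes higher in YAPi the difference was 1.90 for INSIG1, 1.84 for SH2B3, 1.66 for ACTR2, 1.401 for TXNDC12, 1.36 for AP1S2 and 1.33 for GLTP. ENSG00000275993, annotated as an artifact, stood at 1.32, MAT2B at 1.21, NCS1 at 1.18, KLF13 at 1.16 and CERK at 1.02. Smaller differences were those of HSPA5 (0.94), EPAS1 (0.94), TAGLN2 (0.92), EDEM1 (0.86), CAV2 (0.73) and AXL (0.47). NT5E had the opposite sign, at -0.52, since its fold change under TAM was the larger of the 2. Of the 27 genes, edgeR called 12, the fit without the replicate block 16, and all 27 kept their sign in both. Fits with a MDA-MB-231 library left out had no block, so their calls are not set beside the 27. All 27 genes kept their sign in each of those fits. The genes were named for large changes in MDA-MB-231, so a larger change there than in ER-Src is in part what named them, and the lines also differ in depth and read length, whose part was not tested.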

How the results depend on the processing

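The 275 calls between YAPi and TAZi became 1516 with edgeR (857 higher and 659 lower in YAPi, so 56.5% higher beside 68.0%), 140 with no replicate block, 84 with effective length offsets, 573 in the fit over 8 knockdown libraries and 1000 with edgeR over those 8. Calls with TMM factors (259), a mean count of at least 10 (277) and a threshold of 0.05 (412) were within 1.5 times. Leaving out each library, in the fit over 8 libraries that otherwise gave 573, left 160 to 206 (191 without YAPi replicate 1, 178 without YAPi replicate 2, 206 without TAZi replicate 1, 160 without TAZi replicate 2), each fewer than 573 by over 1.5 times. Under each of these settings the calls shared with the 275 had the same direction. Of 55 named genes called in the comparison, none changed sign; 16 lost the call without the replicate block, 29 with offsets, 14 to 17 when a library was left out and 0 with edgeR over 4 libraries.

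The uncalled genes TEAD4 and H4C12 changed sign: TEAD4, at -0.07, became 0.071 with offsets and ran from -0.17 to 0.0022 with a library left out, and H4C12, at 0.61, ran from -0.16 to 6.38, both changing sign without TAZi replicate 2. In ER-Src TAM, the 593 calls became 990 with edgeR, 920 with no replicate block and 239 to 590 with a library left out (239 without YAPi replicate 2, 325 without TAZi replicate 2). In ETH, the 517 became 1961 with edgeR and 131 to 405 (163 without YAPi replicate 2, 131 without TAZi replicate 1, 189 without TAZi replicate 2). For the difference between the lines, the 515 became 113 with edgeR, 267 at a mean count of at least 10, 206 with no replicate block and 103 to 144 with a MDA-MB-231 library left out and no block, each of which lowered it by over 1.5 times. The causes were not tested. The ER-Src fits with a library left out started from all 10 libraries of a condition, while 593 and 517 rest on 4. Their counts therefore also reflect a change of fit, and no count from all 10 libraries is given beside them. At 2 libraries per group and at most 2784553 counts each, the absence of a call does not show equal levels in YAPi and TAZi.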

Other observations

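Some further called genes, chosen after their values were seen, share known roles. In lipid and one-carbon metabolism SCD, which desaturates stearoyl-CoA, was at 89.9 and 94.9 normalized counts in YAPi and 248 and 239.8 in TAZi, FADS2 at 115 and 97.8 against 263 and 186, and SHMT2, the mitochondrial serine hydroxymethyltransferase, at 141 and 116 against 328 and 276. All 3 genes were lower in YAPi (adjusted p = 1.4e-06, 0.00092 and 1.4e-06, DESeq2). SHMT2 held 1 match to the YAP1 siRNA seed in its 3′ UTR, SCD and FADS2 none.

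Signalling genes were called on both sides. The TGFβ receptor gene TGFBR1 was at 319 and 389 normalized counts in YAPi and 114 and 132 in TAZi (log2 fold change 1.52), and the EGF receptor ligand TGFA was at 335 and 349.6 in YAPi and 115 and 119 in TAZi (1.55). IL24, a cytokine of the IL-10 family, was at 131 and 132 in YAPi and 341 and 332 in TAZi (-1.36), and had -1.17 in ER-Src under TAM (adjusted p = 1.1e-28, DESeq2) and 0.77 under ETH (adjusted p = 0.86). TGFA and IL24 held neither seed match, while TGFBR1 held both.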
